A study of Homo sapiens with 24 samples.

Results

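Adhesion genes of leukocytes were followed through 2 leukemia lines and a BET bromodomain inhibitor. The genes are PECAM1, the integrin subunits ITGA4, ITGA5, ITGA6, ITGAL, ITGB1, ITGB2 and ITGB7, and CD44, 9 in all. A gene was taken from the core array rows that the platform annotation assigns to it alone, and 8 of the 9 had such a row, out of 14232 genes so measured. ITGA4 had none, because its rows also carry the symbol of a neighbouring gene, so it enters no comparison. PECAM1 was chosen from results of these data, and its fall under JQ1 in MHH-CALL4 is taken as the reason. Every PECAM1 comparison that uses that line is therefore given as a description, without a test. Whether the MUTZ-5 values of PECAM1 also entered the choice is not known. The other genes were listed as its companions in leukocyte adhesion, with earlier results of these data known.

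Both lines, MHH-CALL4 and MUTZ-5, are long established and derive from human acute lymphoblastic leukemia of B cell precursors. Both were grown in the same medium and exposed for 8 hours to 500 nM JQ1, which displaces BET proteins from acetylated chromatin, or to its solvent DMSO. The groups are MHH-CALL4 with DMSO, MHH-CALL4 with JQ1, MUTZ-5 with DMSO and MUTZ-5 with JQ1, each with 3 samples on 1 exon array apiece, 12 arrays in all. Whether the 3 samples in each group came from separate cultures is not stated in the labels. The p-values therefore reflect only how far these samples spread, and that spread may be technical. Each group stands for 1 cell line, and values are RMA expression levels on the log2 scale, in which a step of 1 is a 2-fold change.

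PECAM1 (CD31) is an immunoglobulin-family molecule that binds itself on neighbouring cells and carries inhibitory tyrosine motifs in its cytoplasmic tail. It is known from endothelium, platelets and many leukocytes. Integrins are pairs of an alpha and a beta chain that leukocytes switch from a resting to a binding state. ITGAL pairs with ITGB2 to form LFA-1, the receptor for the ICAM proteins. ITGB1 pairs with ITGA4 and ITGA5 in receptors for VCAM1 and fibronectin and with ITGA6 in a laminin receptor. ITGB7 pairs with ITGA4 in the receptor for the gut addressin MADCAM1. CD44 is the main receptor for hyaluronan. In precursor B cell leukemia such molecules hold cells in the marrow niche.

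The median of all genes lay between 8.46 and 8.57 on every array, and precision is limited by how many arrays there are. The treatment was visible in 2 genes known to respond to BET inhibitors. MYC fell by 2.05 log2 in MHH-CALL4 and fell by 1.32 in MUTZ-5, and HEXIM1 rose by 1.76 and 1.51, respectively (limma adjusted p between 8.6e-10 and 6.3e-08). Of 9 measured markers of B cell precursors, 8 reached at least 10 in some group, and RAG1 stayed between 7.46 and 7.72. All 8 endothelial markers and all 5 measured platelet markers stayed under 9 in every group. Of 6 myeloid markers 5 did so as well, and the exception was MPO, a granule enzyme, at 10.51 in MHH-CALL4 with DMSO. In bulk RNA, fewer cells that carry a transcript and less of it per cell cannot be told apart.

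**Figure D1:**
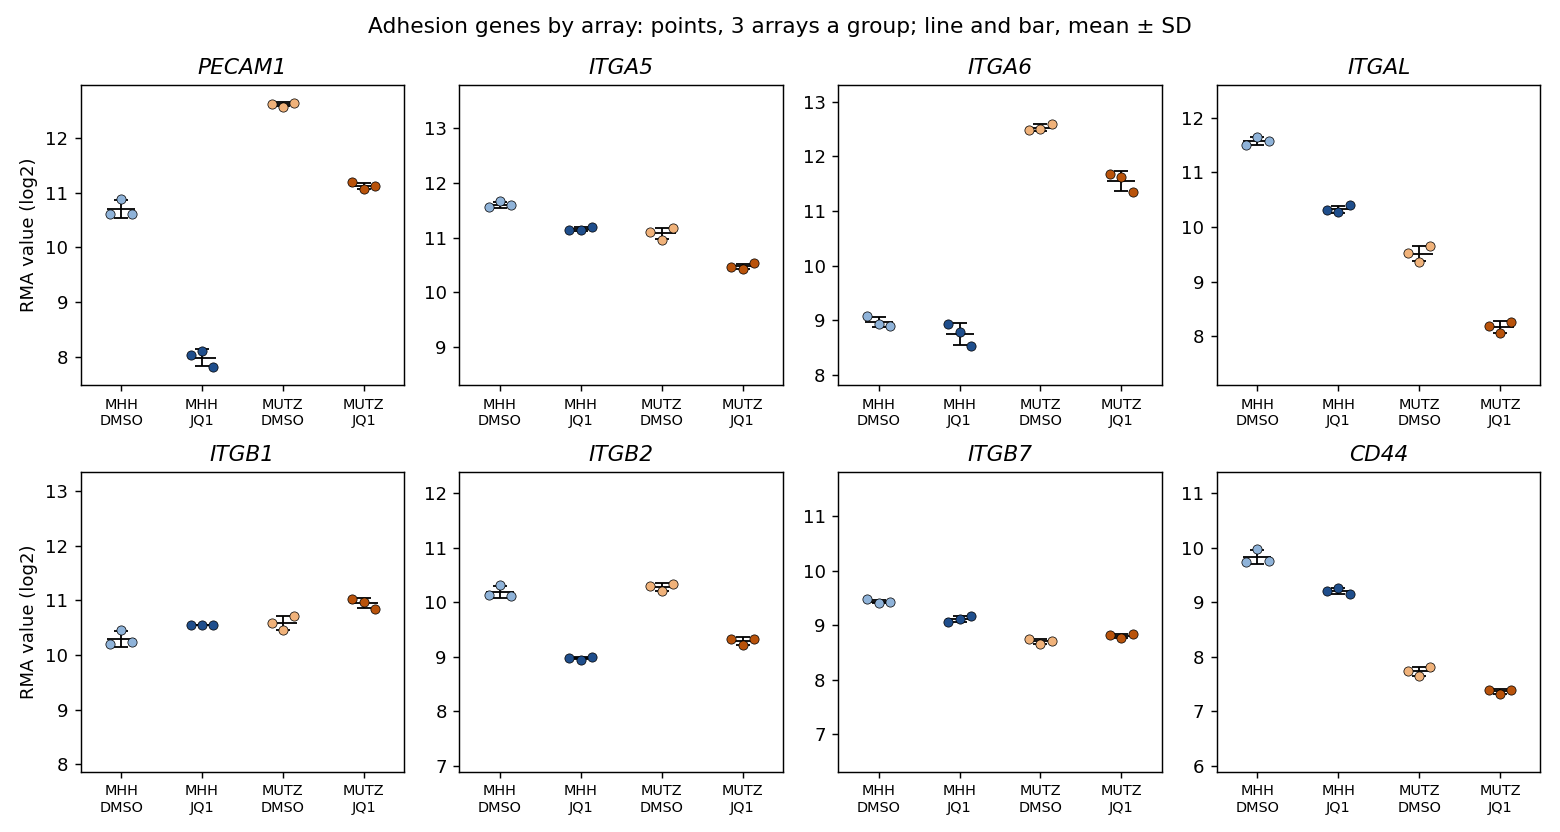
RMA expression on the log2 scale (vertical axes, all spanning the same number of log2 units) for the 8 measured adhesion genes in the 4 groups. Points are arrays, lines and bars are the mean ± SD of 3 arrays; PECAM1 drops from a mean of 10.70 to 7.98 in MHH-CALL4 and from 12.62 to 11.13 in MUTZ-5, whereas ITGB1 is slightly higher under JQ1 in both lines.

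PECAM1 was lower under JQ1 in both lines, and the larger drop was in the line that started lower. In MHH-CALL4 the DMSO arrays read 10.61, 10.89 and 10.61, and the JQ1 arrays 8.04, 8.10 and 7.81. The JQ1 values all lay more than 2 log2 units under the DMSO values. The means were 10.70 ± 0.16 and 7.98 ± 0.16 (SD, n = 3), a 6.60-fold difference (-2.72 log2, SE 0.095). In MUTZ-5 the DMSO arrays read 12.64, 12.58 and 12.65, and the JQ1 arrays 11.19, 11.08 and 11.12. The groups were again apart, and the mean fell from 12.62 ± 0.037 to 11.13 ± 0.057 (SD, n = 3). This is a 2.81-fold fall (-1.49 log2, SE 0.095, limma with Benjamini-Hochberg adjustment, adjusted p = 2.2e-07). That p-value holds only if the MUTZ-5 values played no part in the choice of PECAM1. Under JQ1 MUTZ-5 still held more PECAM1 signal than MHH-CALL4 did under DMSO, with no overlap of arrays. The effect differed by 1.23 log2 between lines (0.91 with extended summaries). It is given without a test because it contains the fall for which PECAM1 is taken as chosen. MPO, the myeloid marker named above, was also lower under JQ1 in MHH-CALL4, at 8.04, and lay at 8.19 and 7.71 in MUTZ-5. It was singled out after its values were seen and is given without a test. LYZ, which encodes lysozyme, fell in MHH-CALL4 from 6.63 to 5.80. The other 4 did not fall with them, with means under DMSO and JQ1 of 7.285 and 7.289 for CSF1R, 7.81 and 7.84 for CD14, 7.15 and 7.49 for CSF3R and 8.54 and 8.61 for ELANE. Averaged per array, the 6 myeloid markers ranged from 7.94 to 8.04 with DMSO and from 7.45 to 7.62 with JQ1 in MHH-CALL4, and from 7.31 to 7.50 and 7.37 to 7.44 in MUTZ-5. The part of myeloid expression in the PECAM1 result was not tested. The average of the 8 endothelial markers lay between 6.77 and 7.05 on all 12 arrays.

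Both chains of LFA-1 fell in both lines, by close to 1 log2 unit or more in the core values. ITGAL, the alpha chain, read 11.51, 11.66 and 11.58 with DMSO in MHH-CALL4 and 10.31, 10.27 and 10.40 with JQ1. The mean fell from 11.58 ± 0.074 to 10.33 ± 0.066 (SD, n = 3), or 2.39-fold (-1.26 log2, SE 0.088, limma adjusted p = 3.3e-07). In MUTZ-5 ITGAL read 9.53, 9.36 and 9.65 with DMSO and 8.18, 8.05 and 8.27 with JQ1. Here the fall was 2.55-fold, from 9.52 ± 0.14 to 8.17 ± 0.11 (-1.35 log2, limma adjusted p = 2.5e-07). All JQ1 arrays lay below all DMSO arrays of their line. ITGB2, the beta chain shared by the leukocyte integrins, read 10.12, 10.31 and 10.11 with DMSO in MHH-CALL4 and 8.98, 8.95 and 8.99 with JQ1. It fell 2.31-fold, from 10.18 ± 0.11 to 8.97 ± 0.022 (SD, n = 3; -1.21 log2, SE 0.076, limma adjusted p = 1.1e-07). In MUTZ-5 ITGB2 read 10.30, 10.20 and 10.33 with DMSO and 9.33, 9.21 and 9.33 with JQ1, a 1.98-fold fall (-0.99 log2, limma adjusted p = 9.1e-07). With extended summaries the ITGB2 differences were smaller, at -0.84 log2 in MHH-CALL4 and -0.75 in MUTZ-5. The effect on ITGAL differed between lines by -0.092 log2 (95% interval -0.36 to 0.18), with the sign turned to 0.087 in extended summaries. The effect on ITGB2 differed by 0.22 log2 (95% interval -0.0083 to 0.45). Neither difference passed the test (adjusted p = 0.89 and 0.504).

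Among the alpha chains that pair with ITGB1, ITGA5 fell in both lines and ITGA6 in MUTZ-5. ITGA5, the fibronectin receptor chain, read 11.56, 11.66 and 11.59 with DMSO in MHH-CALL4 and 11.14, 11.14 and 11.20 with JQ1. This is a 1.36-fold fall (-0.44 log2, SE 0.073, n = 3, limma adjusted p = 4.8e-04). In MUTZ-5 it read 11.10, 10.96 and 11.17 with DMSO and 10.46, 10.43 and 10.52 with JQ1, a 1.52-fold fall (-0.61 log2, limma adjusted p = 4.7e-05). DMSO and JQ1 arrays of a line did not overlap for ITGA5. ITGA6, the laminin receptor chain, read 12.48, 12.50 and 12.60 with DMSO in MUTZ-5 and 11.68, 11.62 and 11.34 with JQ1. It fell 1.97-fold there, from 12.53 ± 0.064 to 11.55 ± 0.18 (SD, n = 3; -0.98 log2, SE 0.11, limma adjusted p = 3.1e-05). In MHH-CALL4 ITGA6 was far lower, with 9.07, 8.93 and 8.89 under DMSO and 8.93, 8.78 and 8.52 under JQ1. These arrays overlapped, and the difference of -0.22 log2 (95% interval -0.46 to 0.020) did not pass the test (adjusted p = 0.16).

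Whereas the beta chain ITGB2 fell in both lines, ITGB7 fell in MHH-CALL4 only and ITGB1 fell in neither. ITGB1 read 10.58, 10.45 and 10.72 with DMSO in MUTZ-5 and 11.03, 10.97 and 10.85 with JQ1. It rose 1.29-fold, and every JQ1 array lay above every DMSO array (0.37 log2, SE 0.090, n = 3, limma adjusted p = 0.0094). In MHH-CALL4 it read 10.20, 10.46 and 10.24 with DMSO and 10.54, 10.55 and 10.54 with JQ1. The arrays did not overlap, yet the difference of 0.25 log2 (95% interval 0.055 to 0.44) narrowly missed the threshold (limma adjusted p = 0.054). It passed without MHH-CALL4 DMSO replicate 2 (0.33 log2, adjusted p = 0.021), without MUTZ-5 DMSO replicate 2 (adjusted p = 0.042) and without MUTZ-5 DMSO replicate 3 (adjusted p = 0.035). It also passed after median centring (0.29 log2, adjusted p = 0.014), after cyclic loess (0.33, adjusted p = 0.0019), with low genes filtered out (adjusted p = 0.028) and with a trended, robust variance model (adjusted p = 0.037). ITGB7 read 9.48, 9.41 and 9.42 with DMSO in MHH-CALL4 and 9.07, 9.12 and 9.17 with JQ1, a 1.24-fold fall (-0.32 log2, SE 0.065, limma adjusted p = 0.0026). In MUTZ-5 it read 8.76, 8.66 and 8.71 with DMSO and 8.83, 8.76 and 8.83 with JQ1, a difference of 0.10 log2 (95% interval -0.037 to 0.24, adjusted p = 0.34). The JQ1 arrays of ITGB7 lay just above the DMSO arrays in that line.

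CD44 fell in both lines from very different levels. In MHH-CALL4 it read 9.74, 9.97 and 9.76 with DMSO and 9.20, 9.26 and 9.15 with JQ1. This is a 1.54-fold fall, from 9.82 ± 0.13 to 9.20 ± 0.053 (SD, n = 3; -0.62 log2, SE 0.080, limma adjusted p = 6.3e-05). In MUTZ-5 CD44 read 7.74, 7.64 and 7.82 with DMSO and 7.39, 7.31 and 7.39 with JQ1, a 1.29-fold fall (-0.37 log2, limma adjusted p = 0.0042). The JQ1 arrays lay below the DMSO arrays in each line. A second transcript cluster annotated to CD44 alone exists only in the extended form. With DMSO before JQ1, it averaged 6.50 and 5.81 in MHH-CALL4 and, in MUTZ-5, 5.64 and 5.21. Its DMSO values in MUTZ-5 spread from 5.34 to 6.13, and they were not tested.

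Counted together, 7 of the 8 measured genes were called in MUTZ-5, where 22.0% of all genes were called at an adjusted p under 0.05. Of these 7, 6 fell and ITGB1 rose. The genes that fell include PECAM1, whose call in MUTZ-5 depends on how it was chosen, as said above. Among all genes, 13.0% fell and 9.06% rose there. In MHH-CALL4, where PECAM1 was not tested, 5 of the other 7 genes were called, against 28.5% of all genes. All 5 fell, a direction taken by 17.5% of all genes. ITGA6 and ITGB1 did not pass. The median JQ1 effect of the tested genes was -0.44 log2 in MHH-CALL4, without PECAM1, and -0.79 in MUTZ-5, with it. With PECAM1 in both lines the medians were -0.53 and -0.79. Medians over all genes were 0.0065 and 0.0084. DMSO and JQ1 arrays did not overlap for any of the 8 genes in MUTZ-5, as for 32.6% of all genes. In MHH-CALL4, leaving PECAM1 aside, they did not overlap for 6 of 7, where ITGA6 was the exception, as for 43.7% of all genes.

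**Figure D2:**
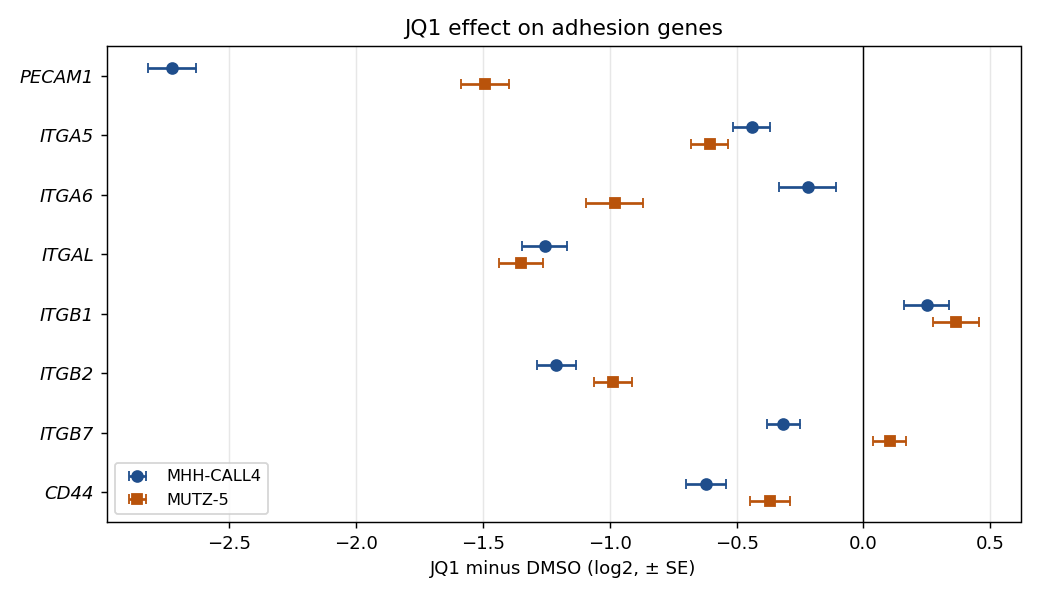
JQ1 minus DMSO on the log2 scale (horizontal axis) for the 8 measured adhesion genes, with MHH-CALL4 as circles and MUTZ-5 as squares; bars are the SE from the fit. PECAM1 lies at -2.72 and -1.49 and ITGAL at -1.26 and -1.35, while ITGB1 lies above 0 in both lines.

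The response differed between lines for 2 of the 7 genes tested, ITGA6 and ITGB7, where 1.53% of all genes were called for this difference. ITGA6 fell more in MUTZ-5, by a difference of -0.76 log2 (SE 0.16, limma adjusted p = 0.0266), a direction called for 0.583% of all genes. The ITGB7 effect was higher in MUTZ-5 by 0.42 log2 (SE 0.092, limma adjusted p = 0.0395), as called for 0.949% of all genes. Both calls rest on all 12 arrays. The call for ITGA6 was kept in 4 of the 12 fits that left out an array, which were those without MHH-CALL4 DMSO replicate 1, MHH-CALL4 JQ1 replicate 3, MUTZ-5 DMSO replicate 3 or MUTZ-5 JQ1 replicate 1. Otherwise its adjusted p lay between 0.051 and 0.081, with differences between -0.87 and -0.66 log2 over the 12 fits. The call for ITGB7 was kept in 2 of the 12, without MHH-CALL4 JQ1 replicate 3 or MUTZ-5 DMSO replicate 3, and its adjusted p otherwise lay between 0.0655 and 0.113. It was also lost with extended summaries (0.25 log2, adjusted p = 0.405). The CD44 effect differed by 0.25 log2 and did not pass (adjusted p = 0.45), but it passed with extended summaries (0.58 log2, adjusted p = 0.0225). The differences for ITGA5 and ITGB1 were -0.17 log2 (95% interval -0.39 to 0.056) and 0.12 log2 (95% interval -0.16 to 0.39), and neither passed.

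The 2 lines entered the treatment with unlike sets of adhesion genes. Under DMSO 6 of 7 tested genes differed, against 23.4% of all genes, with 2 higher and 4 lower in MUTZ-5 (11.9% and 11.5% of all genes). ITGA6 was 11.8-fold higher in MUTZ-5 (3.56 log2, SE 0.11, limma adjusted p = 3.6e-11). CD44 was 4.25-fold lower (-2.09 log2, adjusted p = 2.25e-10) and ITGAL 4.19-fold lower (-2.07 log2, adjusted p = 6.8e-10). ITGB7 was 1.66-fold lower (-0.73 log2) and ITGA5 1.44-fold lower (-0.53 log2). ITGB1 was 0.29 log2 higher with overlapping arrays (adjusted p = 0.033). This result did not hold without MHH-CALL4 DMSO replicate 1 or 3 and without MUTZ-5 DMSO replicate 1 or 3 (adjusted p between 0.083 and 0.13). ITGB2 differed by 0.096 log2 (95% interval -0.067 to 0.26, adjusted p = 0.41), so the LFA-1 alpha chain differed 4.19-fold where its beta chain did not pass the test. PECAM1 was 1.92 log2 higher in MUTZ-5, given without a test. Leaving PECAM1 aside, arrays of the 2 lines did not overlap for 5 of the 7 genes under DMSO, as for 36.2% of all genes.

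Under JQ1 all 7 tested genes differed between the lines, against 19.9% of all genes, 3 of them higher in MUTZ-5 and 4 lower (11.7% and 8.25% of all genes). ITGA6 remained 6.98-fold higher in MUTZ-5 (2.80 log2, limma adjusted p = 4.2e-10), ITGAL 4.47-fold lower (-2.16 log2) and CD44 3.57-fold lower (-1.84 log2, or -1.21 with extended summaries). ITGB2 was 0.32 log2 higher in MUTZ-5 (adjusted p = 0.0075), a call lost with extended summaries (0.18 log2, adjusted p = 0.23). PECAM1 was 3.15 log2 higher, and 2.76 with extended summaries, without a test. All 7 tested genes had arrays that did not overlap between lines, as did 33.1% of all genes.

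**Figure D3:**
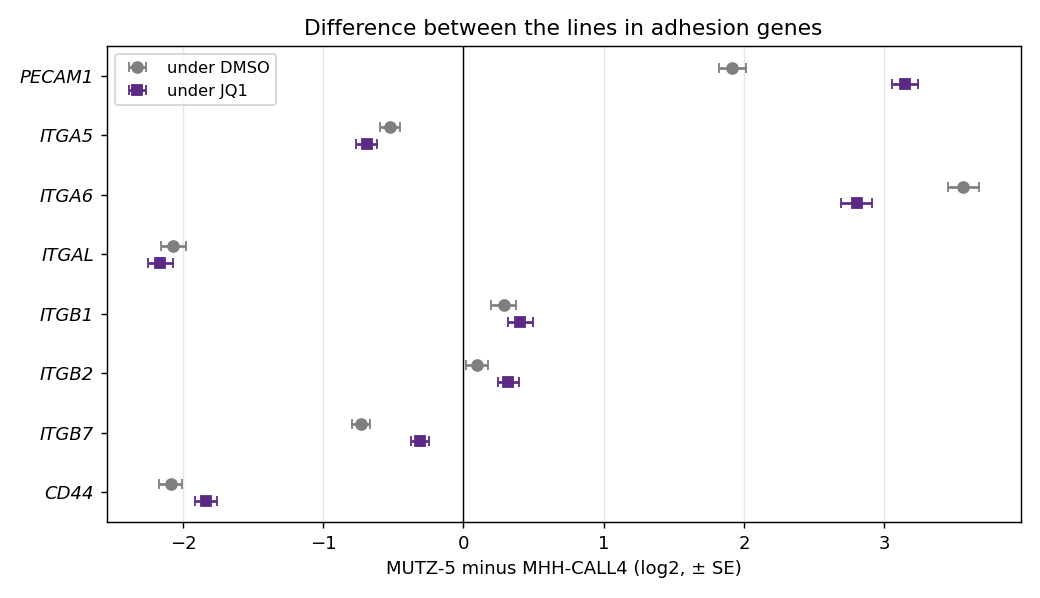
MUTZ-5 minus MHH-CALL4 on the log2 scale (horizontal axis) for the 8 measured adhesion genes, under DMSO as circles and under JQ1 as squares; bars are the SE from the fit. ITGA6 and PECAM1 lie to the right, at 3.56 and 1.92 under DMSO, and ITGAL and CD44 to the left, at -2.07 and -2.09.

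Ordered by mean level across the 4 groups, most neighbours were apart. PECAM1 ran from MUTZ-5 with DMSO over MUTZ-5 with JQ1 and MHH-CALL4 with DMSO to MHH-CALL4 with JQ1, with no overlap between neighbours. ITGA6 followed the same order, and its 2 MHH-CALL4 groups overlapped. ITGAL and CD44 both ran from MHH-CALL4 with DMSO over MHH-CALL4 with JQ1 and MUTZ-5 with DMSO to MUTZ-5 with JQ1, with no overlap. ITGA5 had that order too, but MHH-CALL4 with JQ1 and MUTZ-5 with DMSO overlapped (means 11.16 and 11.08). ITGB7 was highest in MHH-CALL4 with DMSO and lowest in MUTZ-5 with DMSO, and no neighbours overlapped. For ITGB1 MUTZ-5 with DMSO and MHH-CALL4 with JQ1 overlapped in the middle (10.58 and 10.55). For ITGB2 the 2 DMSO groups overlapped at the top (10.28 and 10.18).

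Sequence upstream of the start sites was read for members that moved in different ways. The RefSeq promoter table (GRCh38.p14) held entries for 6 of the 9 genes, and none for PECAM1, ITGAL and ITGB2. ITGA5 and CD44 are shown because they fell in both lines, ITGB1 because it rose in MUTZ-5, and ITGA6 because it had the largest difference between lines. Each line gives the 250 bases before a start site. Capitals mark matches on either strand to 3 motifs: GAGGAA, the purine-rich box of the ETS factor PU.1, CACGTG, the E-box of MYC and related factors, and TGACTCA, the AP-1 site. The motifs do not overlap one another in these windows.
ITGA5 (chr12:54419267-54419516, minus strand): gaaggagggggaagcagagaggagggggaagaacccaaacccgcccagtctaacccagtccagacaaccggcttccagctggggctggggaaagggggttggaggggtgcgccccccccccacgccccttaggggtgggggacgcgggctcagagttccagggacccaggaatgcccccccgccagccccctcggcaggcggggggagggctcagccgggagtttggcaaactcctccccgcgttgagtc
CD44 (chr11:35138921-35139170, plus strand): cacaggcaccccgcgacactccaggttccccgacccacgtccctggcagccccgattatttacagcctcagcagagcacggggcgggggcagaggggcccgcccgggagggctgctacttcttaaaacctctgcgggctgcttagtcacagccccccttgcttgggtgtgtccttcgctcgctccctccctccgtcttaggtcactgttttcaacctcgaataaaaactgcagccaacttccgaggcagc
ITGB1 (chr10:32958231-32958480, minus strand): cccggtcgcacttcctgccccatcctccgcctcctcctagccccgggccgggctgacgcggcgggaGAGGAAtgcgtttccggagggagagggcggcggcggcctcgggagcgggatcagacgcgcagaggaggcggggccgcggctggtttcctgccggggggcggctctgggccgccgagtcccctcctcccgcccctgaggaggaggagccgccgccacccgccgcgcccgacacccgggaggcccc
ITGA6 (chr2:172427086-172427335, plus strand): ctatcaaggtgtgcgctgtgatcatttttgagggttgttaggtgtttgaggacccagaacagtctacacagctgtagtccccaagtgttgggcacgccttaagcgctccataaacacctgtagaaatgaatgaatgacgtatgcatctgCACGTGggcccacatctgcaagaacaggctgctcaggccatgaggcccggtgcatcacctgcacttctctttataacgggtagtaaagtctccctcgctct
The windows of ITGA5 and CD44 hold none of the 3 motifs. That of ITGB1 holds GAGGAA, whose first base is 184 bases before the start, and that of ITGA6 holds CACGTG, 101 bases before it. Of 35116 promoters in the table, 23.6% hold GAGGAA, 6.34% CACGTG and 4.20% TGACTCA in the same window. A match describes letters and is no measured site. The window of ITGB7, which fell in MHH-CALL4, also holds GAGGAA, on the other strand and 28 bases before the start, and that of ITGA4 holds none of the 3. ITGB1 and ITGA6 each have a second entry in the table, and those windows hold none of the motifs.

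Among genes for integrin activation and adaptors, some that switch the integrin to its binding state fell and others rose. Of 23 measured, 8 fell, 3 rose and 12 did not pass in MHH-CALL4, so 47.8% were called, against 28.5% of all genes. In MUTZ-5 6 fell, 3 rose and 14 did not pass, 39.1% against 22.0%. The medians over the list were -0.089 and 0.012 log2, close to the 0.0065 and 0.0084 of all genes. FERMT3 encodes kindlin-3, which binds integrin beta tails. It fell from 11.45 to 10.08 in MHH-CALL4 (-1.37 log2, SE 0.073, n = 3, limma adjusted p = 2.8e-08) and by 0.75 log2 in MUTZ-5 (adjusted p = 8.3e-06). RASGRP2, which activates the small GTPase RAP1, fell by 1.20 log2 in MHH-CALL4 and fell by 1.001 in MUTZ-5. APBB1IP, the RAP1 effector RIAM, fell by 0.74 and 0.57, and the effector RASSF5, singled out after its values were seen, by 0.61 (0.34 with extended summaries) and 0.68. FYB1, an adaptor for integrin activation, fell by 0.36 and 0.85 log2, from 6.12 in MHH-CALL4 with DMSO and from 12.11 in MUTZ-5. Its mean of 5.76 in MHH-CALL4 with JQ1 lay near the 10th percentile of genes on those arrays (5.66 to 5.76). VCL, which encodes vinculin at the link to actin, rose by 1.20 and 1.28 log2. The other rises were ILK, a kinase-like adaptor (0.35 and 0.32 log2), FERMT2 in MHH-CALL4 (0.40, from 6.33 with DMSO) and CYTH1 in MUTZ-5 (0.53). ILK, FERMT2 and CYTH1 were named after their values were seen. FERMT2 had an adjusted p of 0.0511 when DMSO replicate 1 of MHH-CALL4 was left out, and ILK in MUTZ-5 one of 0.0525 without DMSO replicate 1 of that line. Counts of rises went from 3 to 5 without MHH-CALL4 JQ1 replicate 3 in MHH-CALL4 and without MUTZ-5 DMSO replicate 3 in MUTZ-5.

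Among ligands and other immunoglobulin-family adhesion molecules, the share called in MHH-CALL4 was near that of all genes. Of 22 measured, 6 fell and 16 did not pass the limma test there, 27.3% called against 28.5%. In MUTZ-5 7 fell, CD99L2 rose (0.27 log2, named after its value was seen) and 14 did not pass, 36.4% against 22.0%. Medians over the list were -0.0017 and -0.049 log2. ICAM2, a ligand of LFA-1, fell by 0.92 log2 in MHH-CALL4 (adjusted p = 2.3e-07) and fell by 0.97 in MUTZ-5 (adjusted p = 2.2e-07). ICAM3 fell by 0.68 and 0.45 log2. ICAM1 fell by 0.33 log2 in MUTZ-5 (adjusted p = 0.023) and differed by -0.23 in MHH-CALL4 (adjusted p = 0.091), and both genes were singled out after their values were seen. The ICAM1 call was lost without MUTZ-5 DMSO replicate 1 or 3 and without MUTZ-5 JQ1 replicate 1 or 2 (adjusted p between 0.058 and 0.11). CD48 fell by 1.21 and 0.75 log2 and CD58, the ligand of CD2, by 0.81 and 0.68. ALCAM fell by 0.70 in MHH-CALL4 and differed by -0.21 in MUTZ-5, where it did not pass. CD226, an activating receptor of lymphocytes and platelets, fell by 1.49 log2 in MUTZ-5 and differed by 0.052 in MHH-CALL4, where it lay at 6.45 under DMSO.

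**Figure D4:**
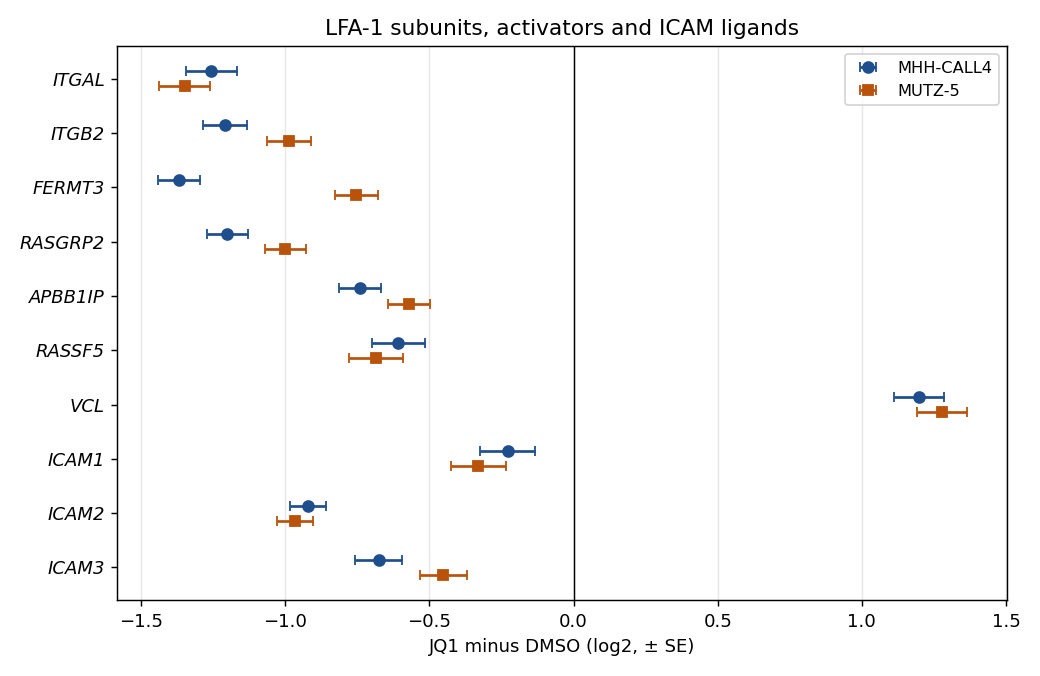
JQ1 minus DMSO on the log2 scale (horizontal axis) for the LFA-1 chains ITGAL and ITGB2, genes of integrin activation and ICAM ligands, with MHH-CALL4 as circles and MUTZ-5 as squares; bars are the SE from the fit. Of the genes drawn, all but VCL lie below 0 in both lines, with VCL at 1.20 and 1.28. RASSF5, ICAM1 and ICAM3 were added after their values were seen. ILK, FERMT2 and CYTH1 of the integrin activation list are not drawn. ILK rose in both lines, FERMT2 in MHH-CALL4 and CYTH1 in MUTZ-5. FERMT2 in MUTZ-5 (0.21) and CYTH1 in MHH-CALL4 (0.0082) did not pass the test.

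The tyrosine motifs of PECAM1 recruit phosphatases, and of 14 genes for its partners and such signalling 6 fell, 1 rose and 7 did not pass in MHH-CALL4. Thus 7 of 14 were called, where 28.5% of all genes were. In MUTZ-5 4 fell, 1 rose and 9 did not pass, 35.7% against 22.0%. PTPN6, the phosphatase SHP-1, fell by 1.49 log2 in MHH-CALL4 (limma adjusted p = 6.5e-09) and by 1.16 in MUTZ-5 (adjusted p = 7.6e-08). CD72, another inhibitory receptor of B cells, fell by 1.68 and 1.51 (0.98 with extended summaries in MUTZ-5), and the kinase SYK by 0.84 and 0.55. SIRPA, an inhibitory receptor that binds CD47, fell by 0.98 log2 in MHH-CALL4 (0.58 with extended summaries). It differed by -0.035 in MUTZ-5, where it lay at 6.92 under DMSO. FYN, a Src family kinase, rose by 0.80 and 0.64 log2, the 1 rise in each line. PTPN11, the phosphatase SHP-2 that PECAM1 binds, differed by -0.16 and -0.10 and did not pass in either line. CD38, a PECAM1 ligand, differed by -0.23 and 0.22 and did not pass either, but passed in both lines without MUTZ-5 DMSO replicate 3 (adjusted p = 0.0482 and 0.00983). Both genes were singled out after their values were seen. The medians over the list were -0.19 and -0.094 log2, and 2 genes rose in MUTZ-5 without MUTZ-5 DMSO replicate 3.

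Of 15 other integrin subunits measured, 1 fell, 2 rose and 12 did not pass in MHH-CALL4, and 1 fell, 1 rose and 13 did not pass in MUTZ-5. These are 20.0% and 13.3% called, against 28.5% and 22.0% of all genes. ITGA8 fell by 2.63 log2 in MUTZ-5 (SE 0.10, limma adjusted p = 7.2e-09), from 9.08 to 6.44, and ITGB3, the beta chain of the vitronectin receptor, rose there by 0.73 (adjusted p = 6.4e-05). In MHH-CALL4 ITGA11 fell by 0.36 log2, ITGAV rose by 0.25 and ITGB5 by 0.30. Their DMSO means there were 7.99, 5.94 and 7.10, all under the median of all genes. The call for ITGA11 was lost without MHH-CALL4 DMSO replicate 2, JQ1 replicate 1 or JQ1 replicate 2, and that for ITGB5 without DMSO replicate 1 or 2 or JQ1 replicate 1 or 3. Adjusted p then lay between 0.056 and 0.071. The list's medians were 0.071 and 0.0050 log2.

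Selectin ligands, hyaluronan genes and tetraspanins gave mixed calls. Of 10 selectins and ligand genes 2 rose, 2 fell and 6 did not pass in MHH-CALL4, and 3 rose, 2 fell and 5 did not pass in MUTZ-5 (medians 0.090 and 0.051 log2). Thus 4 and 5 of the 10 were called, where 28.5% and 22.0% of all genes were. GCNT1, an enzyme that builds selectin ligands, rose by 0.57 and 0.92 log2, the latter 0.58 with extended summaries (limma adjusted p = 8.5e-04 and 2.3e-05). GLG1 rose by 0.25 and 0.33 log2, and ST3GAL4 fell by 0.32 in MHH-CALL4. CD34 fell by 0.95 log2 in MUTZ-5, where PODXL, a related sialomucin, rose by 0.67. CD24 fell by 0.35 and 0.44 log2. That call was lost in MHH-CALL4 without DMSO replicate 2 or any 1 of the 3 JQ1 arrays, and in MUTZ-5 without JQ1 replicate 3 (adjusted p = 0.0513). Without MHH-CALL4 DMSO replicate 2 its difference there was -0.20 log2 (adjusted p = 0.143). Of 10 genes for hyaluronan metabolism, shedding of CD44 and its link to the cytoskeleton, 9 did not pass in MHH-CALL4 and 8 in MUTZ-5 (medians 0.057 and -0.0068 log2). So 1 and 2 of the 10 were called, where 28.5% and 22.0% of all genes were. MSN (moesin) fell by 0.34 log2 in MHH-CALL4 and by 0.27 in MUTZ-5, and EZR (ezrin) rose by 0.33 in MUTZ-5. In MUTZ-5 the MSN call was lost without DMSO replicate 1 or 3 or JQ1 replicate 2 or 3, and the EZR call without DMSO replicate 1 or 2 or JQ1 replicate 1 or 2. Without MUTZ-5 DMSO replicate 3, 2 genes of this list rose in MUTZ-5. Of 12 tetraspanins, membrane partners of integrins, 3 fell and 2 rose in MHH-CALL4, and 4 fell and 1 rose in MUTZ-5, with 7 not past the test in each (medians -0.032 and -0.043 log2). The share called was 41.7% in both lines, against 28.5% and 22.0% of all genes. In MUTZ-5 2 fell without JQ1 replicate 1 or without JQ1 replicate 2. CD151, which binds the laminin-binding integrins, fell by 0.74 log2 in MHH-CALL4 (adjusted p = 1.9e-05), or 0.34 with extended summaries, and fell by 0.31 in MUTZ-5. CD63 fell by 0.29 and 0.36 log2, CD9 by 0.27 and 0.45, and TSPAN31 rose by 0.32 and 0.47. CD82 rose by 0.35 log2 in MHH-CALL4, by 0.23 without JQ1 replicate 3. TSPAN33 fell by 0.33 in MUTZ-5, a call lost without DMSO replicate 1 or 3 or any 1 of the JQ1 arrays (adjusted p between 0.0642 and 0.108).

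Genes whose 12 array values ran most like those of each member were found by Pearson correlation among the 1001 genes with an SD of at least 0.5 over the arrays. For PECAM1 these were CACNB2 (r = 0.995), GPR18 (0.993), TMEM156 (0.991), NOP2 (0.991) and CCND2 (0.988). With DMSO before JQ1, CACNB2 averaged 11.08 and 9.42 in MHH-CALL4 and, in MUTZ-5, 11.99 and 11.07. ITGAL ran most like GNA15 (r = 0.999), with means of 12.05, 10.59, 9.83 and 8.28 in the same order of groups, then CAMK1D and RGS19. ITGB2 ran most like PFAS (0.995), SLC7A1 and DHX33. ITGA6 ran most like PYHIN1 (0.996), CLIC5 and CRMP1, and CD44 most like SPRY2 (0.997), CPT1A and IL4R. ITGA5, ITGB1 and ITGB7 varied less than this SD. The 12 arrays fall into 4 groups, so these correlations mostly describe the order and spacing of 4 means and carry no test.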

How the data were processed

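RNA of 12 samples (2 cell lines with DMSO or JQ1, 3 samples each) was measured on Affymetrix exon arrays. Per the submitters' processing notes and the design text, the authors made the deposited log2 values by RMA in Affymetrix Expression Console. The version, genome build and set of arrays normalized together are not given in the sources used here. Each array was deposited in a core and an extended form, 24 columns in all, which count as 1 replicate. There are no detection calls, so signal over background is unknown.

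Of 22011 core transcript clusters, 14432 carry 1 gene symbol, which gives 14232 genes. For a gene with several rows the one with the highest mean was used. RefSeq gene IDs changed 0 symbols.

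In R 4.3.3, limma 3.58.1 (lmFit and eBayes) estimated the 4 group means jointly from the 12 core arrays. Tests are two-sided, adjusted by Benjamini-Hochberg over all genes, and called at an adjusted p under 0.05. The procedure was tested on simulated data. The genes and the lists, written from general knowledge, were chosen with earlier results of these data known. Named were all members, up to 4 called genes per list and line, MYC and HEXIM1, the 5 genes most like PECAM1 and the 3 most like each other member that varied enough. PTPN11, CD38, RASSF5, ICAM1, ICAM3, FERMT2, ILK, CYTH1 and CD99L2 were added after their values were seen, and the marker MPO was singled out likewise. T and NK cell and stromal markers were also checked: 6 of 7 and 5 of 6 stayed under 9 in every group, the exceptions being NKG7 (at most 10.47) and PDGFRB (at most 9.86). Alternatives were extended summaries, median centring, cyclic loess, a filter on low genes, trended robust eBayes, a replicate block, a mean over rows, fits of 2 groups, and each array left out.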

Additional observations from a re-analysis of the deposited data

Results flagged for a closer look

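The JQ1 effect differed between the lines, by a test of the difference itself (limma, MUTZ-5 minus MHH-CALL4, n = 3 arrays a group), for these genes. The ITGA6 difference was -0.76 log2 (effects of -0.22 in MHH-CALL4 and -0.98 in MUTZ-5, adjusted p = 0.0266). The ITGB7 difference was 0.42 (effects of -0.32 and 0.10, adjusted p = 0.0395). Of the 12 fits without 1 array, the ITGA6 call was lost in 8 and the ITGB7 call in 10. The ITGB7 call was also lost with extended summaries and with the replicate block. Among other adhesion genes the differences were -2.43 for ITGA8 (adjusted p = 3.8e-06), -1.54 for CD226 (0.0017), -0.995 for CD34 (0.012), 0.80 for ITGB3 (0.0053), 0.94 for SIRPA (0.0079), 0.61 for PODXL (0.011) 0.52 for CYTH1 (0.0158) and 0.62 for FERMT3 (0.0067). The CYTH1 result did not pass in 3 of the 12 fits without 1 array (adjusted p between 0.0557 and 0.057). For MYC the difference was 0.73 (adjusted p = 0.0011). ITGA8, CD226 and CD34 had DMSO means of 5.94, 6.45 and 6.93 in MHH-CALL4, against 9.08, 9.39 and 10.62 in MUTZ-5. ITGB3 had DMSO means of 6.98 in MHH-CALL4 and 8.03 in MUTZ-5. SIRPA was the low one in MUTZ-5, at 6.92 against 9.21 in MHH-CALL4.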

How the results depend on the processing

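The number of adhesion genes called was 5 of 7 in MHH-CALL4 (5 to 6 over all alternatives), 7 of 8 in MUTZ-5 (7 in each), 6 of 7 between lines under DMSO (5 to 6) and 7 of 7 under JQ1 (6 to 7). The number whose JQ1 effect differed between lines was 2, with 0 to 2 over fits that left out 1 array and 1 with the replicate block. The ITGAL difference between lines changed sign with extended summaries (0.087 log2, adjusted p = 0.94), and the cause was not tested. The uncalled CYTH1 difference in MHH-CALL4 (0.0082) ranged from -0.0093 to 0.033 over fits without 1 array. With extended summaries CD151, RASSF5 and SIRPA in MHH-CALL4, CD72 and GCNT1 in MUTZ-5 and CD44 between lines under JQ1 kept their direction and call with effects over 1.5 times smaller. PECAM1 ranged from -2.78 to -2.42 log2 in MHH-CALL4 and from -1.52 to -1.44 in MUTZ-5. Same-numbered arrays correlated at 0.30, 0.070 and 0.23 in MHH-CALL4 and at -0.17, -0.21 and -0.44 in MUTZ-5 (residuals over genes). Arrays with unlike numbers ranged from -0.30 to 0.10 in MHH-CALL4 and from -0.32 to 0.39 in MUTZ-5. These correlations cannot tell whether same-numbered samples shared a batch or culture. With the replicate block 5, 7, 5 and 7 genes were called in the first 4 comparisons above, and the calls lost were those of ITGB7 for the difference between lines and ITGB1 between lines under DMSO (adjusted p = 0.092 and 0.063). ITGB1 was also lost there when the 2 DMSO groups were fitted alone. Calls of other named genes lost with other settings were those of CD24 (median centring, cyclic loess, 2 groups alone), CD82 and ST3GAL4 (extended summaries), ITGB5 (cyclic loess), FERMT2 (extended summaries, cyclic loess), EZR (2 groups alone) and TSPAN33 (extended summaries, median centring, 2 groups alone). Counts in the lists that moved were, in MHH-CALL4, other integrin subunits (1 lower and 2 higher, not kept or called with the filter on low genes, and 1 higher with cyclic loess), ligands (1 higher with cyclic loess), selectin genes (2 lower became 1 with extended summaries, median centring, cyclic loess and 2 groups alone), PECAM1 partners (1 higher became 2 with those first 3, the filter and trended robust eBayes) and tetraspanins (2 higher became 1 with extended summaries). In MUTZ-5 they were ligands (1 higher became 2 with median centring or cyclic loess), hyaluronan genes (the 1 rise, EZR, lost with 2 groups alone) and tetraspanins (4 lower became 2 with extended summaries). Each fit without an array leaves 2 in that group. With no background level, how low signal limits CD44 in MUTZ-5 is not known.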

Other observations

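ITGA4, the alpha chain of the VCAM1 receptor, had no row of its own. The transcript cluster annotated to both ITGA4 and its neighbour CERKL averaged, in MHH-CALL4, 12.06 ± 0.076 with DMSO and 11.27 ± 0.15 with JQ1 (log2, SD, n = 3). In MUTZ-5 the means were 11.76 ± 0.14 and 11.03 ± 0.115. The other cluster with both symbols read between 5.68 and 6.08 on the 12 core arrays. These values cannot be assigned to either gene.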
